A study of Mus musculus with 4 samples.

Results

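The respiratory chain carries electrons from NADH and succinate to oxygen and uses the energy to make ATP. Complex I (NADH dehydrogenase), complex III (cytochrome bc1) and complex IV (cytochrome c oxidase) pump protons across the inner mitochondrial membrane, complex II (succinate dehydrogenase) feeds electrons in without pumping, and complex V (ATP synthase) lets the protons back through a turning ring of c subunits. A few subunits of complexes I, III, IV and V are encoded by mitochondrial DNA, and all others, including the whole of complex II, are encoded in the nucleus. Microglia, the resident macrophages of the brain, rely on this chain together with glycolysis for their ATP.

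The subunits were taken by gene symbol from a table of read counts: 97 of its 26051 features, of which 13 were encoded by mitochondrial DNA and 84 in the nucleus. Complex I had 44 members, complex II 4, complex III 10, complex IV 20 and complex V 19. The series measured poly(A)-selected RNA of mouse microglia isolated at embryonic day 14. In 2 libraries, titled ko, the histone acetyltransferase gene Hat1 had been deleted in microglia with the Cre-loxP system, and 2 libraries titled ff served for comparison. What ff stands for, which Cre line and mouse strain were used, and whether the libraries came from separate animals is not stated in the labels. The p-values below therefore measure the spread between these libraries, which may be technical.

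Library totals ran from 14814846 to 18990917 counts. Hat1 stood at 44.3 and 71.4 CPM (a gene's counts per 1000000 counts of the library, with library sizes scaled by edgeR's TMM factors) in the ff libraries and at 39.2 and 36.6 in the ko libraries. Its log2 fold change of -0.61 ± 0.23 (SE, 2 libraries a group) had an adjusted p of 0.298 in edgeR's quasi-likelihood test. Of the 15840 genes tested, 270 passed an adjusted p of 0.05, which is 1.7%, with 188 higher and 82 lower in ko. The ko library 1 alone held counts of the Y-linked gene Ddx3y (3188, against 0 in the other 3 libraries). Its Xist count was 3, against 2847 to 3986 elsewhere. The ko libraries thus differed from each other in these sex-linked genes. Without ko library 1 the median log2 fold change of the nuclear subunits, given below as 0.17, was 0.18, and that of the mitochondrial ones, 0.09, was -0.04.

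None of the 90 subunits that had enough counts to be tested passed the threshold, with 0 higher and 0 lower in ko, beside 1.7% of all genes in either direction, 1.19% higher and 0.518% lower. Unadjusted, 22 of the 90 had p under 0.05 (21 nuclear and 1 mitochondrial), all 22 higher in ko, beside 16.2% of all genes in either direction and 8.62% higher, and the smallest adjusted p was 0.0879, for Atp5g2. The other 7 subunits (ND3, ND4L, ATP8, Ndufa1, Cox7a1, Cox7b2 and Cox8b) had at most 7 counts in any library. DESeq2, run as an alternative, called COX1 (adjusted p = 0.0494) and Atp5g2 (adjusted p = 0.0371), both higher in ko. What follows describes levels and directions, and no single subunit is said to have changed.

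The 13 mitochondrially encoded subunits spanned a wide range of counts, and most of the lowest were those whose sequence also lies in the nuclear genome. The mouse nuclear genome holds transposed copies of mitochondrial DNA, and GENCODE M21 (GRCm38) annotates unprocessed pseudogenes of this kind on chromosome 1. A read from a gene with a perfect copy has more than 1 place to align. The start of ND3, which encodes a membrane subunit of complex I, is shown with its copy Gm28438 because the pair differ at a single base over the whole aligned stretch of 345 bases. Both runs give transcript bases 1 to 150, 5′ to 3′, from the GENCODE transcripts, and the capital marks the base that differs.
ND3: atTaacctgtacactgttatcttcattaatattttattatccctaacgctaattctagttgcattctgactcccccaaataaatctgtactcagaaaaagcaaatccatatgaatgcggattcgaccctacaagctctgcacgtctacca
Gm28438: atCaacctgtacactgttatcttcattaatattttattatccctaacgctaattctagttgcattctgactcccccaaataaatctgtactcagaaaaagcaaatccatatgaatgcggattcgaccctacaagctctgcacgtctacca

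Counted per kilobase of transcript and averaged over the 4 libraries, COX1 (the catalytic subunit of complex IV) stood at 3894 CPM, CYTB (the cytochrome b of complex III) at 3743 and ND1 (a membrane subunit of complex I) at 2817. COX1 and CYTB differed by less than the range of COX1 over its own libraries. ND4 followed at 535 CPM per kilobase, ND2 at 272, ND5 at 236 and ND6, the only subunit read from the opposite strand, at 153. The other 6 lay far lower: ATP6 at 56.2, COX2 at 9.87, COX3 at 5.10, ND4L at 1.14, ATP8 at 1.04 and ND3 at 0.227. Mitochondrial messages are cut from long precursors, and several of them share each precursor.

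The low subunits were, with 1 exception, those with a copy among annotated transcripts. Among all stretches of 150 bases (the read length) in each transcript, 99.8% of those in COX3, 99.4% in COX2, 99.4% in ATP6, 98.0% in ND4L and 97.0% in ND3 were also present in an annotated nuclear transcript. The share was 59.2% in ND4 and 23.6% in COX1. It was 0 in CYTB, ND1, ND2, ND5, ND6 and ATP8. The aligned copies of COX2 (681 bases, Gm28661), ATP6 (678 bases, Gm10925), COX3 (783 bases, Gm28437), ND4L (294 bases, Gm10222) and the covered part of ND4 (876 bases, Gm28439) had 0 mismatches, and that of COX1 (492 bases, Gm29216) had 6. ATP8 is the exception: it is 204 bases long, and 43 of them also belong to ATP6. It lies between COX2 and ATP6 on mitochondrial DNA. Only annotated transcripts were searched, so a copy of ATP8 outside them would have been missed. How the authors' counting treated reads with several alignments is not given in the sources used here, so the counts of COX2, COX3, ATP6, ND3, ND4L and, in part, ND4 and COX1 are uncertain as measures of mitochondrial RNA, and the part of the copies in these levels was not tested.

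**Figure D1:**
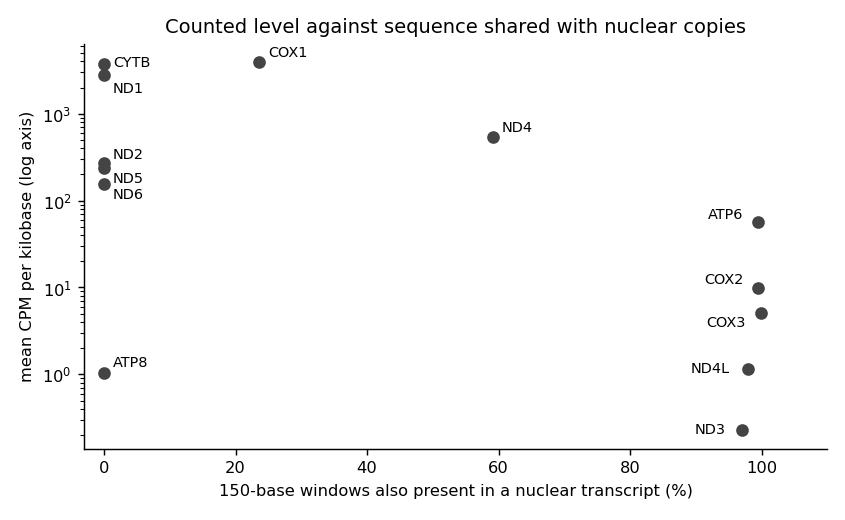
Mean CPM per kilobase (log axis) against the share of 150-base stretches also present in a nuclear transcript, for the 13 mitochondrially encoded subunits, 1 point a gene. The 5 subunits with over 90% shared stretches lie between 0.227 and 56.2 CPM per kilobase, and COX1, CYTB and ND1 lie between 2817 and 3894.

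COX1 was counted 65302 and 93986 times in the ff libraries and 140341 and 100015 times in the ko libraries. In CPM, this was 4452 and 5838 against 7471 and 6307. Both ko libraries lay above both ff libraries, and the ff libraries lay farther apart from each other than ff library 5 lay from ko library 3. The log2 fold change was 0.42 ± 0.15 (SE, 2 libraries a group), with an adjusted p of 0.275 (edgeR's quasi-likelihood test). Leaving out ff library 5 gave 0.61, and leaving out ff library 2 gave 0.24. It was 0.29 without ko library 1 and 0.54 without ko library 3. In such fits 1 group holds a single library, which is assumed to vary like the libraries of the other group.

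CYTB varied little between libraries, at 4346 and 4299 CPM in ff and 4355 and 4126 in ko. Its groups overlapped, with a log2 fold change of -0.03 ± 0.07 and an adjusted p of 0.881 (edgeR). COX1 was counted 1.02 and 1.36 times as often as CYTB in the ff libraries and 1.72 and 1.53 times as often in the ko libraries, a ratio within a library that scaling cannot move.

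The 5 complex I messages of mitochondrial DNA that were tested were all slightly higher in fitted value and overlapped between groups. ND1 lay at 2532 and 2673 CPM in ff and at 3065 and 2514 in ko. ND4 lay at 651 and 781 against 815 and 702, and ND5, like ND4 a proton-pumping subunit, at 362 and 444 against 477 and 439. Library ko 1 was the highest for each, and the other 3 libraries were mixed. ND2 (259 and 284 against 315 and 269 CPM) and ND6 (75.3 and 80.9 against 89.8 and 72.2) had the same order at the top. Log2 fold changes of these 5 ranged from 0.05 to 0.18, and the smallest adjusted p was 0.440. Without ko library 1, ND1 turned to -0.05, ND2 to -0.02, ND4 to -0.03 and ND6 to -0.11, and ND5 was 0.12.

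The subunits with near-complete copies had few counts. COX2, which receives electrons from cytochrome c, was counted 123 and 114 times in ff and 128 and 75 times in ko. Its CPM of 8.39 and 7.08 against 6.81 and 4.73 made it the single mitochondrial subunit below both ff libraries in ko, with a log2 fold change of -0.42 ± 0.25 and an adjusted p of 0.464 (edgeR). COX3 was counted 51 and 65 times against 87 and 61, and ATP6, the proton channel subunit of complex V, 518 and 645 times against 814 and 544. Both of these overlapped between groups. ND3 was counted 2, 0, 1 and 2 times, ND4L 4, 6, 5 and 7 times, and ATP8 4, 2, 5 and 3 times in ff libraries 2 and 5 and ko libraries 1 and 3, too few for a comparison.

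**Figure D2:**
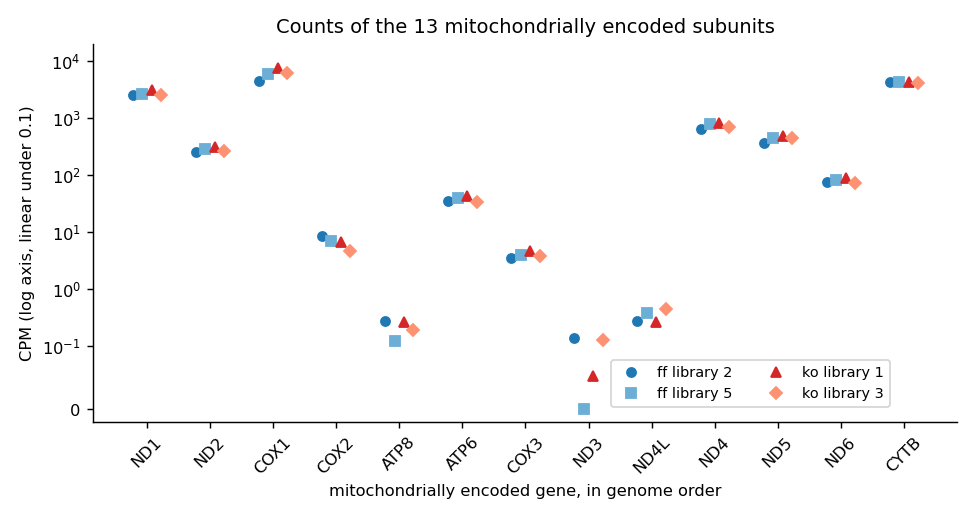
CPM of the 13 mitochondrially encoded subunits in each library, in the order of the genes on mitochondrial DNA (log axis, linear under 0.1). Neighbours such as COX1 and COX2 differ in counts by far more than the 4 libraries differ from each other.

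COX1 was not the only abundant mitochondrial transcript with higher ko values. The large ribosomal RNA mt-Rnr2, which is no subunit, stood at 2118 and 3268 CPM in ff and at 5141 and 3927 in ko, with a log2 fold change of 0.75 ± 0.28 and an adjusted p of 0.330 (edgeR). The small ribosomal RNA mt-Rnr1 stood at 63.7 and 99.3 against 210 and 151 CPM. The libraries took the same order for COX1, mt-Rnr1 and mt-Rnr2, with ff 2 lowest and ko 1 highest. COX1 was counted 2.10 and 1.79 times as often as mt-Rnr2 in ff and 1.45 and 1.61 times in ko. This ratio was thus lower in ko, while that of COX1 to CYTB was higher. The libraries were made by poly(A) selection per the labels' protocols, and how much ribosomal RNA passed that step was not tested.

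**Figure D3:**
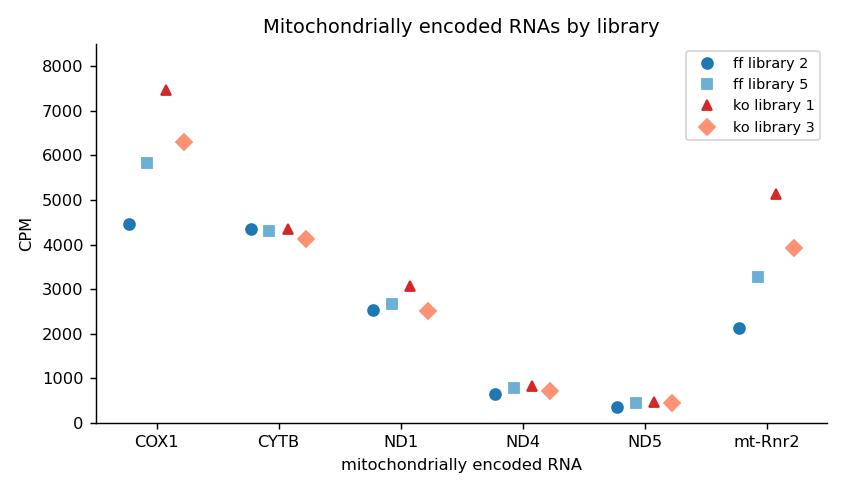
CPM of 5 mitochondrial messages and of the ribosomal RNA mt-Rnr2 in each library, 1 point a library. COX1 and mt-Rnr2 show the same library order from low to high (ff 2, ff 5, ko 3, ko 1), while the CYTB points lie between 4126 and 4355.

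Summed, mitochondrially encoded subunits made up 1.26% and 1.46% of all counts in the ff libraries and 1.65% and 1.46% in the ko libraries. At this depth the 95% Wilson interval of each share was narrow (1.2542 to 1.2655% for ff library 2), and it covers counting error only. The means were 1.36% ± 0.14 (SD, n = 2) and 1.55% ± 0.13 (SD, n = 2), and an exact two-sided permutation test gave p = 0.33, the smallest that 2 against 2 libraries allow. COX1 was 35.0% and 40.4% of the mitochondrial counts in ff and 44.9% and 43.6% in ko, and CYTB 34.2% and 29.8% against 26.2% and 28.5%. Without COX1 the mitochondrial share was 0.819% and 0.868% against 0.907% and 0.822%, which overlapped (exact permutation p = 0.667).

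Nuclear subunits together made up 0.612% and 0.650% of counts in ff and 0.691% and 0.708% in ko. Both ko libraries lay above both ff libraries, with a difference of 0.069 percentage points and the smallest possible p of 0.33 (exact two-sided permutation test). In bulk samples, fewer cells of a type and less RNA per cell cannot be told apart. The ratio of mitochondrial to nuclear subunit counts was 2.06 and 2.24 in ff and 2.38 and 2.06 in ko. It overlapped between groups, with a log2 difference of 0.04 (exact permutation p = 1.0). Without COX1 the log2 ratio was 0.42 ± 0.0017 in ff and 0.30 ± 0.13 in ko (SD, n = 2), lower in both ko libraries, a difference of -0.12 with the smallest p the design allows (0.33, exact permutation test).

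Among the 80 nuclear subunits tested, 49 (61.3%) had both ko libraries above both ff libraries, beside 25.8% of all genes tested. The 49 include Cox6b2 (9 and 6 counts in ff, 17 and 17 in ko), which passed the count filter through its ko libraries only. Of the 80, only 2 (Ndufs1 and Uqcrfs1) had both below, beside 23.8% of all genes, and 29 overlapped. The median log2 fold change of the 80 was 0.17, with 69 of 80 above 0, beside a median of 0.01 and 51.0% over all genes. Of the 10 mitochondrial subunits tested, 1 lay above (COX1), 1 below (COX2) and 8 overlapped, with a median of 0.09 that ran from -0.04 to 0.21 when a library was left out. Most nuclear subunits have short transcripts, and across the 80 the Spearman correlation of transcript length with log2 fold change was -0.22, beside -0.19 over 14604 genes of known length. These genes share the same 4 libraries. With an offset for length and GC content the nuclear median was 0.07, with 56 of 80 above 0 and a median over all genes of -0.03, and the mitochondrial median was -0.04. Under the other scalings the nuclear median stayed between 0.16 and 0.17, and leaving out a library gave 0.15 to 0.20.

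**Figure D4:**
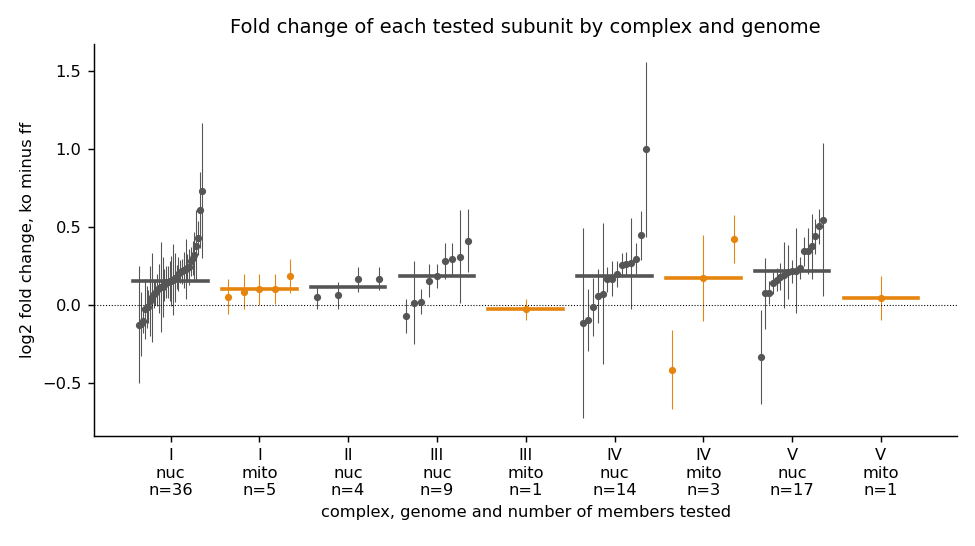
Log2 fold change (ko minus ff) of each tested subunit by complex and genome. Points are genes with their SE, thick bars are medians, and the nuclear medians lie between 0.11 for complex II and 0.22 for complex V.

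The 5 complexes had similar nuclear medians. Complex I had 0.15 over 36 tested subunits, complex II 0.11 over 4, complex III 0.18 over 9, complex IV 0.18 over 14 and complex V 0.22 over 17. The shares with both ko libraries above both ff libraries were 58.3%, 50.0%, 55.6%, 57.1% and 76.5% in the same order. Of the nuclear subunit counts, complex V held 36.4% and 37.0% in ff and 37.5% and 36.9% in ko. Complex I held 21.7% and 21.9% against 21.9% and 21.9%, and complex II 16.2% and 15.7% against 15.0% and 15.8%. Complex III held 13.4% and 12.6% against 12.1% and 12.7%, and complex IV 12.3% and 12.8% against 13.5% and 12.8%. The groups overlapped for all 5 complexes. The differences between the complexes were not tested.

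In complex I, the 7 nuclear subunits of the catalytic core, which carry the flavin and the iron-sulfur clusters, had a median log2 fold change of 0.09, and the 29 accessory subunits tested one of 0.16. Ndufs3, a core subunit, lay at 131 and 137 CPM in ff and 157 and 147 in ko. Ndufs1, the largest core subunit, lay below in ko at 117 and 119 against 108 and 112 CPM, with a log2 fold change of -0.10 ± 0.08 and an adjusted p of 0.546 (edgeR). Core subunits were thus found on both sides of 0.

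Among accessory subunits, Ndufb5 had the smallest adjusted p in complex I, 0.116 (edgeR), and is named for that after its values were seen. It stood at 42.3 and 49.7 CPM in ff and at 63.8 and 60.1 in ko, a log2 fold change of 0.43 ± 0.11. Ndufa9, which binds NADPH, stood at 125 and 122 against 146 and 141 CPM. The largest positive fold changes belonged to low genes: Ndufb1 at 1.02 and 1.37 against 2.40 and 1.58 CPM, and Ndufa2 at 6.20 and 9.88 against 12.6 and 11.98. Among the largest negative, Ndufs5 stood at 1.91 and 3.29 against 2.50 and 2.27 and Ndufa10 at 9.34 and 8.14 against 7.61 and 8.45, both overlapping. Ndufa1, a small membrane subunit, was counted 0 and 1 times in ff and 2 and 3 times in ko. Ndufa4, first described in complex I and later placed in complex IV, stood at 15.1 and 21.9 against 20.5 and 23.0 CPM.

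Complex II, built from the 4 Sdh subunits, was the one wholly nuclear complex. Per kilobase and averaged over libraries, Sdhd (a membrane anchor) led at 296 CPM, followed by Sdha (the flavoprotein) at 170, Sdhb (the iron-sulfur protein) at 64.1 and Sdhc (the other anchor) at 35.4. The counts of Sdhc and Sdhd, at 107 and 104 against 114 and 123 CPM and at 350 and 336 against 373 and 397 CPM, lay higher in both ko libraries. Sdha (472 and 497 against 492 and 511 CPM) and Sdhb (71.1 and 72.1 against 71.4 and 78.3) overlapped. Log2 fold changes ranged from 0.05 to 0.17, and the smallest adjusted p was 0.323 (edgeR).

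In complex III, the core protein Uqcrc1 had the highest counts of the nuclear members, 543 and 509 CPM in ff and 505 and 561 in ko, and its groups overlapped. The electron-carrying subunits went opposite ways in fitted value. Cyc1, the cytochrome c1, stood at 134 and 144 against 156 and 160 CPM (log2 fold change 0.18 ± 0.08, adjusted p 0.298, edgeR). Uqcrfs1, the Rieske iron-sulfur protein, stood at 31.7 and 31.5 against 30.0 and 30.3 CPM. CYTB, the third electron carrier and the mitochondrial one, was given above and overlapped. The 5 small subunits had a median of 0.29, with Uqcrb at 34.2 and 35.4 against 44.2 and 41.0 CPM and Uqcr10 at 7.02 and 7.14 against 10.1 and 8.70. Uqcrc2, the other core protein, lay at 45.4 and 49.8 against 55.8 and 50.3. Uqcr11 (4.98 and 3.60 against 6.23 and 4.35) and Uqcrh (4.16 and 5.16 against 4.26 and 5.17) overlapped.

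Complex IV has subunits made in most cells and isoforms tied to muscle, testis or lung. The 11 broadly expressed members had a median log2 fold change of 0.20, and 7 lay above in both ko libraries. Cox7a2l, which takes part in joining complexes III and IV, had the highest counts, at 300 and 336 CPM against 373 and 358. Cox4i1 stood at 112 and 119 against 141 and 135 CPM, Cox6a1 at 112 and 121 against 132 and 129, and Cox5a at 97.9 and 102 against 121 and 119. Cox5b stood at 11.8 and 12.4 against 17.1 and 15.8, a log2 fold change of 0.45 ± 0.16 with an adjusted p of 0.226 (edgeR). Cox8a stood at 58.8 and 68.6 against 80.3 and 76.2. Cox6b1 (8.39 and 8.94 against 8.57 and 7.63), Cox7b (10.1 and 10.7 against 11.1 and 9.52) and Cox7a2 (12.2 and 13.7 against 14.4 and 12.5) overlapped.

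The tissue isoforms were near 0. Cox4i2, the lung-enriched form, lay between 0.435 and 0.955 CPM, the muscle form Cox6a2 between 0.994 and 1.70 and the testis form Cox6b2 between 0.373 and 1.07. The test of Cox6b2, which passed the count filter through its ko libraries only, rested on 9, 6, 17 and 17 counts. Cox7a1 (2, 0, 1 and 0 counts), Cox7b2 (1, 0, 0 and 0) and Cox8b (1, 0, 0 and 0) were not tested. Markers of striated muscle summed to 0.75 to 1.55 CPM over the 4 libraries. Their broadly expressed counterparts are given above.

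In complex V, Atp5b, the catalytic beta subunit of the F1 head, had the highest counts of all nuclear members. It stood at 1030 and 1092 CPM in ff and at 1168 and 1170 in ko, a log2 fold change of 0.14 ± 0.07 with an adjusted p of 0.374 (edgeR). Atp5a1, the alpha subunit, stood at 432 and 469 against 482 and 470 CPM. Atp5c1, the gamma subunit that turns inside the head, stood at 248 and 250 against 293 and 294 CPM, with 0.24 ± 0.07 and an adjusted p of 0.172. Both ko libraries lay above both ff libraries for all of these. In the stalk, Atp5pb stood at 174 and 177 against 209 and 198 CPM, and Atp5h at 56.3 and 63.4 against 75.7 and 76.2 (0.34 ± 0.09, adjusted p 0.133).

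The c ring of complex V is encoded by a trio of nuclear genes whose products are cut to the same mature protein. Their upstream sequence is printed because these genes had 2 of the 3 smallest adjusted p-values among the subunits, with Atp5g1 beside them for comparison. Each run gives the 250 bases before the RefSeq start on the minus strand of GRCm38.p6, from chr15:102671048-102671297 for Atp5g2, chr2:73911327-73911576 for Atp5g3 and chr11:96075632-96075881 for Atp5g1. Capitals mark the letters GCATGCGC on either strand, the core of the motif known for nuclear respiratory factor 1, which has 2 overlapping matches in Atp5g2 and 0 in the other two.
Atp5g2: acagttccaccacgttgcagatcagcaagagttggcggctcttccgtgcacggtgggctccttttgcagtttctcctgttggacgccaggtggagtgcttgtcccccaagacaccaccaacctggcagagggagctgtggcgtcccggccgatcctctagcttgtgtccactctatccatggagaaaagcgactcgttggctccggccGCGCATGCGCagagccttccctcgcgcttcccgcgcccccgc
Atp5g3: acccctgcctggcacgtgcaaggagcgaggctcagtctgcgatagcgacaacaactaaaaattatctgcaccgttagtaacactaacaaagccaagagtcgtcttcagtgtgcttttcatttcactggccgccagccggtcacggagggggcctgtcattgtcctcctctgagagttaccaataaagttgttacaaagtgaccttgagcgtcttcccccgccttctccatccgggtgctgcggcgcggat
Atp5g1: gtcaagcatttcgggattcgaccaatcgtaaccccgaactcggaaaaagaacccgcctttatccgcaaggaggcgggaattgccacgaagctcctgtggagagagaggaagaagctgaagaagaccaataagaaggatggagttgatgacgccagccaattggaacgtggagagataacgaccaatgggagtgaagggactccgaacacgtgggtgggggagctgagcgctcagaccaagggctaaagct

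Atp5g2 stood at 49.6 and 61.1 CPM in the ff libraries and at 81.3 and 75.7 in the ko libraries, a log2 fold change of 0.50 ± 0.11 with an adjusted p of 0.0879 (edgeR). Atp5g3 stood at 39.2 and 41.8 against 59.2 and 50.6 CPM (0.44 ± 0.11, adjusted p 0.117). Atp5g1 stood at 56.5 and 56.8 against 62.3 and 66.1 (0.18 ± 0.09, adjusted p 0.356). All 3 lay above in both ko libraries. Of the 150-base stretches of Atp5g2, 85.2% were also present in other transcripts, and 52.6% of those of Atp5g1, against 0 for Atp5g3, so the counts of the first pair are uncertain. Atp5g2 was past the threshold without ff library 5 (adjusted p 0.0322) and without ko library 3 (0.0312), and its adjusted p was 0.398 without ff library 2. Atp5g3 was past it without ko library 3 (0.0152).

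The 5 small membrane subunits of complex V had a median log2 fold change of 0.35, and all but Atp5l had few counts. Atp5l stood at 19.4 and 25.0 against 28.3 and 28.2 CPM, Atp5k at 0.682 and 1.37 against 1.38 and 1.64, and Atp5mpl at 6.34 and 7.76 against 8.09 and 6.75. Atp5j2 had the single negative fold change of the nuclear complex V genes, -0.33 ± 0.30, at 4.57 and 3.54 against 3.57 and 2.84, with overlapping groups.

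**Figure D5:**
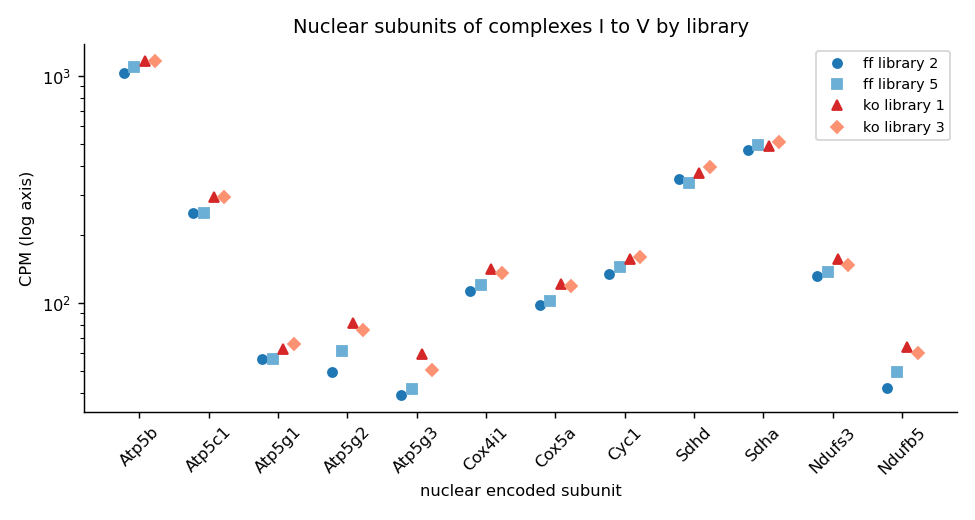
CPM (log axis) of 12 nuclear subunits of complexes I to V in each library. The ko points lie above the ff points for Atp5g2, Atp5g3, Cox4i1, Cox5a, Cyc1 and Ndufb5, and overlap for Sdha. The 12 were picked by hand as examples. Of the 80 nuclear subunits tested, 49 lay above in both ko libraries, 2 below and 29 overlapped.

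Promoter windows (250 bases before to 50 after the start, RefSeq, GRCm38.p6) were found for 69 of the members, 74 windows in all. The letters GCATGCGC, searched on both strands, were in 10 of the 74 (13.5%), beside 2.71% of 32851 windows of all genes. The letters CCGGAAG of the ETS family, to which GABP belongs, were in 17 (23.0%, beside 8.86%). These are counts of letters in a window and not of bound sites. The windows of all genes came from 27025 genes and were not limited to those tested here. Whether the shares are particular to these subunits was not tested.

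Genes that build or feed the chain gave no call either, beside 1.7% of all genes. Of the assembly factors of complex I, 0 of 17 tested passed, with a median log2 fold change of 0.11, and of complexes II to V, 0 of 38 with 0.13. Of the carriers and quinone genes, 0 of 25 passed, with 0.09. Foxred1, a complex I assembly factor, stood at 61.2 and 59.6 against 62.3 and 62.6 CPM, and Coa3, an assembly factor of complex IV, at 85.5 and 78.7 against 93.0 and 95.8. Slc25a5, an ADP/ATP exchanger, stood at 213 and 194 against 170 and 167 (log2 fold change -0.27 ± 0.08, adjusted p 0.162, edgeR), and the phosphate carrier Slc25a3 at 140 and 164 against 176 and 159.

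The mitochondrial ribosome, which translates the 13 mitochondrial messages, had a median of 0.15 over 78 tested genes, and 42 of them (53.8%) lay above in both ko libraries, beside 25.8% of all genes. Mrpl10 stood at 88.8 and 93.2 against 105 and 109 CPM (adjusted p 0.216, edgeR). Genes that maintain and transcribe mitochondrial DNA had a median of 0.07 over 32: Lrpprc, which stabilises mitochondrial messages, stood at 87.5 and 90.2 against 81.3 and 87.1, and Ssbp1, which coats single-stranded mitochondrial DNA, at 61.8 and 62.2 against 61.6 and 58.0. Nuclear regulators had a median of -0.08 over 15, with Hif1a, the oxygen-sensing factor, at 288 and 299 against 254 and 258 CPM (adjusted p 0.236).

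The tricarboxylic acid cycle had a median of 0.02 over 20 tested genes and glycolysis with lactate transport one of -0.05 over 22. Pkm, the pyruvate kinase, stood at 939 and 1050 against 1000.3 and 899. The lowest adjusted p of all 8 lists belonged to the lactate exporter gene Slc16a3, named after its values were seen: 71.6 and 78.9 against 54.0 and 43.5 CPM, a log2 fold change of -0.63 ± 0.12 with an adjusted p of 0.0522 (edgeR). Over all alternatives its adjusted p ran from 2.1e-07 (no filter on low counts) to 0.11 (without ff library 5). It was past the threshold by DESeq2 (0.00371) and without either ko library, and not with limma-voom (0.0564), with a filter of 50 counts in 2 libraries (0.0589) or without ff library 2 (0.0841).

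Summed markers of some cell types lay apart between the groups, and those of others overlapped. Of the 10 microglial markers listed, 9 were found, summing to 11445 and 11217 CPM in ff and to 9779 and 9360 in ko. Among them Cx3cr1 fell (2237 and 2292 against 1274 and 1122 CPM, adjusted p 0.00108, edgeR), while Tmem119 and Aif1 rose (adjusted p 0.0158 and 0.0329). The 8 markers of border-associated macrophages summed to 19131 and 16536 against 12854 and 14745, and 6 lay below in both ko libraries, with Cd163 past the threshold (lower, 0.004), so the libraries labelled microglia also held RNA of these markers. The 7 mural and fibroblast markers summed to 292 and 439 against 695 and 488, with the same library order as COX1. Lymphocyte markers summed to 16.5 and 13.3 against 29.7 and 26.5, with Gzma past the threshold (higher, 0.0131). The 5 lymphocyte markers tested were low, at 1.26 to 9.17 CPM averaged over the libraries. Neuronal ones summed to 362 and 392 against 263 and 292, with Sox11 past it (lower, 0.00615). Monocyte and neutrophil ones summed to 97.8 and 88.5 against 136 and 124, with Ccr2 past it (higher, 0.0405). Endothelial markers summed to 48.3 and 71.8 against 60.1 and 105, which overlapped. All 6 were positive in fitted value, with 0 past the threshold. Neural progenitor markers (712 and 959 against 723 and 962) and erythroid ones (20.8 and 23.7 against 18.5 and 24.4) overlapped in their sums. Of 7 lymphocyte and 7 striated muscle markers listed, 6 each were found. The count table held no gene at 0 in every library, so whether the missing markers had counts is not known. The part of the markers in the subunit values was not tested.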

How the data were processed

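Raw read counts per gene were deposited by the authors in 1 table of 4 libraries, 2 ff and 2 ko. Per the submitters' processing notes, reads were handled with CASAVA, HISAT2 2.0.5, DESeq and DESeq2 on GRCm39. Per the series' design text, reads were 150-base pairs, filtered for adapters and low quality. The counting program and its treatment of strand and of reads with several alignments were not given in the sources used here. Of 26054 lines, 3 that name no gene were left out, which kept 26051 features. No columns of other samples were present.

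From the counts, edgeR 4.0.16 (R 4.3.3) was run with TMM scaling, its filterByExpr filter, a robust quasi-likelihood fit and Benjamini-Hochberg adjustment over the 15840 genes tested, with a threshold of 0.05. The common biological coefficient of variation was 13.6%. The filter was met by 90 of the 97 subunits, a low gene being able to pass through the counts of 1 group only. Shares and ratios of counts were compared with exact two-sided permutation tests over libraries. DESeq2 1.42.0 and limma 3.58.1 (voom), other scalings and filters, a length and GC offset (mgcv 1.9.3), and leaving out each library were alternatives. Transcript lengths and shared stretches came from GENCODE M21 (GRCm38), another build than that of the counts, matched by name, and promoters from RefSeq (GRCm38.p6). Lengths were found for all 97 subunits. No whole genome was searched here.

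Genes named were all 13 mitochondrial subunits, all Sdh genes, known tissue isoforms, Hat1 and, per complex, the 4 nuclear genes with the highest mean CPM and the 2 with the largest fold change in each direction. In each pathway list, genes past the threshold or otherwise the 2 most expressed were named. Some genes that meet this rule are not reported here. Others are marked in the text or stand as examples of their role. The members and lists were chosen with earlier results of these data known. The design was 2 against 2 libraries, so an exact test over them cannot give p under 0.33.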

Additional observations from a re-analysis of the deposited data

How the results depend on the processing

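No paired analysis was run because the labels give no pairing of ff with ko libraries. The 270 genes past the threshold became 566 with DESeq2 and 1386 with no filter on low counts, and 163 to 1009 when a library was left out (the fewest without ff library 2, the most without ko library 3). The 0 subunits became 2 with DESeq2, 5 with no filter (COX1, Atp5g2, Atp5g3, Atp5h and Ndufb5) and 0 to 3 without a library. limma-voom gave 0 subunits. The 0 pathway genes became 2 with DESeq2, 10 with no filter, 1 (Slc16a3) with DESeq2 size factors, with library totals only, with mitochondrial subunits left out of the scaling and with the length and GC offset, and 0 to 3 without a library. The cause was not tested.

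The length and GC offset took nuclear medians to 0.068 over all complexes, 0.047 in complex I, 0.038 in II, 0.079 in III, 0.085 in IV and 0.12 in V, and mitochondrial ones to -0.039 in complex I and -0.15 in III. Leaving out a library gave nuclear medians of 0.15 to 0.19 in complex I, 0.067 to 0.17 in II and 0.15 to 0.30 in V. The log2 ratio of the genomes turned to -0.12 with the mean of log2 CPM over members, and ranged from -0.062 to 0.15 when a library was left out.

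The offset turned the log2 fold change of ND1 to -0.039, ND2 to -0.039, ND4 to -0.039, ND6 to -0.057, ATP6 to -0.098, Sdhb to -0.067, Uqcrc1 to -0.097, Uqcrh to -0.074, Cox6a2 to -0.065, Cox7a2 to -0.072, Foxred1 to -0.023 and Mrpl12 to -0.023. Leaving out a library changed the sign of ND1 (-0.050 to 0.24), ND2 (-0.015 to 0.21), ND4 (-0.045 to 0.20), ND6 (-0.11 to 0.20), CYTB (-0.067 to 0.011), ATP6 (-0.14 to 0.20), Ndufs5 (-0.46 to 0.30), Sdhb (-0.0045 to 0.13), Uqcrc1 (-0.057 to 0.095), Uqcrh (-0.13 to 0.16), Cox4i2 (-0.61 to 0.54), Atp5mpl (-0.067 to 0.20), Ndufa4 (-0.017 to 0.50), Cox6a2 (-0.29 to 0.50), Cox7a2 (-0.048 to 0.15), Cox7b (-0.13 to 0.092), Coa5 (-0.037 to 0.13) and Pkm (-0.15 to 0.0083). Counts near 0 and shared sequence limit the low subunits.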
